A study of Mus musculus with 2 samples.

Results

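Chemokines are small secreted proteins that draw leukocytes into a tissue, and the genes described here are the chemokines and chemokine receptors of mouse dorsal skin after testosterone propionate (TP). All genes were taken whose symbol is Ccl, Cxcl, Ccr or Cxcr followed directly by a number, together with Xcl1, Cx3cl1, Cx3cr1 and Ackr1 and without Cxcl12 and Cxcr4, provided that at least 1 unique molecular identifier (UMI, 1 counted transcript molecule) was found in the 2 libraries. The names took 61 of the 32285 genes in the files. Of these, 50 had a UMI, 34 of them ligands and 16 receptors, and 11 had none. In the cells kept after filtering, 40 members reached 50 UMIs over both libraries, of which 30 were ligands and 10 receptors, and 10 members stayed below.

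The study modelled androgenetic alopecia in male C3H/HeN mice. Shaved dorsal skin of mice aged 7 weeks received subcutaneous TP at 0.5 mg per day, and controls received vehicle, and the skin was taken at 9 weeks. Each library pooled the dorsal skin of 15 mice, so control and TP were 1 sample each and no animal could be told from another. No test between the conditions was therefore possible, and all intervals below are 95% intervals that cover counting error only. A further group of the study, given TP with an antibody against CXCL12, was not analysed here.

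Chemokines are grouped by the spacing of their first cysteines into CC, CXC, XC and CX3C ligands. They bind G protein-coupled receptors on leukocytes, and most ligands share receptors with related ligands, while atypical receptors such as Ackr1 bind chemokines without signalling through G proteins. In skin, keratinocytes, fibroblasts, endothelium and resident macrophages all make chemokines, Ccl27a being a well-known keratinocyte ligand and Ccl21a a ligand of lymphatic vessels that guides dendritic cells and T cells through Ccr7.

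The neutrophil-attracting ligands Cxcl1, Cxcl2 and Cxcl3 lie on mouse chromosome 5 (GRCm38.p6, Cxcl3 at chr5:90786101-90788093, Cxcl1 at chr5:90891245-90893121 and Cxcl2 at chr5:90903899-90905938, all on the plus strand). Cxcl10 lies at chr5:92346638-92348889 on the minus strand, and Ccl8 lies at chr11:82115185-82116799 on the plus strand. The 250 bases before their RefSeq start sites are shown as examples. Cxcl10 was not among the members called 2-fold different below, and some members with larger ratios are not shown. Capitals mark matches on either strand to the κB-like motif GGANTTNCC and the interferon-response-like motif GAAANNGAA, where N is any base, and the search used windows of 300 bases (250 before to 50 after the start).
Cxcl1, chr5:90890995-90891244, plus strand: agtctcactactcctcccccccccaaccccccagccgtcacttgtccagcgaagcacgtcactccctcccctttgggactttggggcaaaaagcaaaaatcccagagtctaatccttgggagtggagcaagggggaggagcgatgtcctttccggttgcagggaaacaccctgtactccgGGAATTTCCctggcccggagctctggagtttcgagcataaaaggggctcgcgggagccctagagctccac
Cxcl2, chr5:90903649-90903898, plus strand: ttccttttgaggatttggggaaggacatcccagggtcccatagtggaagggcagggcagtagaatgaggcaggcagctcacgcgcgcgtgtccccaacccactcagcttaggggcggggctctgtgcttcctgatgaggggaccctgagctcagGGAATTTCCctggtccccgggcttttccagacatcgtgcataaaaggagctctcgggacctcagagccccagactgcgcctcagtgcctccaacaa
Cxcl3, chr5:90785851-90786100, plus strand: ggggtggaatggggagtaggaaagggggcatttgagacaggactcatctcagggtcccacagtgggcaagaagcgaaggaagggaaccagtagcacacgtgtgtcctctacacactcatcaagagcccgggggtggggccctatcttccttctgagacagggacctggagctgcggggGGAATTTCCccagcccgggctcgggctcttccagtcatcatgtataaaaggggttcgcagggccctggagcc
Cxcl10, chr5:92348890-92349139, minus strand: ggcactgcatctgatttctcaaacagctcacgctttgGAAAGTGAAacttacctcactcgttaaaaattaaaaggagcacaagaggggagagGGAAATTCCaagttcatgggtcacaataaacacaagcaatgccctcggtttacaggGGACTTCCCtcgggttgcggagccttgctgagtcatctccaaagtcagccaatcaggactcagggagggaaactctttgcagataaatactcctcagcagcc
Ccl8, chr11:82114935-82115184, plus strand: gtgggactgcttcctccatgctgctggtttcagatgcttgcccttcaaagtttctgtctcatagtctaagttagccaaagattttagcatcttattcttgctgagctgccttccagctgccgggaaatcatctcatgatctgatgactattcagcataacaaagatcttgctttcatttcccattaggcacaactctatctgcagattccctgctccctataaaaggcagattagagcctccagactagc
Cxcl1, Cxcl2 and Cxcl3 held the same letters GGAATTTCC, at 70, 96 and 72 bases before the start site. Cxcl10 held the κB-like motif at 158 and 102 bases before the start and the interferon-response-like motif at 213. Ccl8 held neither. Of 35 members with a RefSeq window, 8 held the κB-like motif (Ackr1, Ccr3, Ccr6, Cxcl1, Cxcl2, Cxcl3, Cxcl10 and Cxcr2), against 3.95% of all 32817 windows. The interferon-response-like motif was in 7 (Ccl1, Ccl3, Ccl19, Ccr2, Cxcl9, Cxcl10 and Cxcl14), against 8.55% of all windows. A match is a run of letters and not a tested site.

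The control library kept 39076 cells with a median of 2058 UMIs, and the TP library kept 18542 cells with a median of 4922 UMIs. Barcodes above the mitochondrial limit made up 7.58% of the control library and 22.6% of the TP library. The libraries shared 303 barcodes, of which 186 were among the kept cells. Cells were clustered without the members, and clusters were named "-like" from marker genes, as with C1qa, C1qb and Mrc1 for macrophage-like cells, Krt1 and Krt10 for suprabasal cells of the interfollicular epidermis (IFE), and Corin and Rspo3 for dermal papilla cells (DPCs). Clusters with 32% of control cells and 13.6% of TP cells stayed unnamed. Class shares differed between the libraries: IFE suprabasal-like cells made up 9.36% of control and 26.2% of TP cells, inner root sheath-like cells 18.2% and 5.22%, dermal fibroblast (DF)-like cells 0.33% and 2.65%, and macrophage-like cells 0.366% and 1.2%. A level summed over all cells cannot separate more cells of a class from more RNA in each cell, so totals are set beside a ratio in which every class was held at its share of control UMIs, called the ratio at control shares below.

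Summed over all kept cells, the members took up 304.9 counts per 1000000 UMIs (CPM) in control (32556 UMIs) and 597.8 CPM in TP (80225 UMIs). The composition of these UMIs differed. Ccl8, a monocyte chemotactic protein, held 4.26% of member UMIs in control and 28.1% in TP, whereas Cxcl14, a ligand of epithelia and fibroblasts, held 48.2% and 22%. Ccl27a (ENSMUSG00000073888) held 16.3% in control and 8% in TP.

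Of the 40 members with at least 50 UMIs, 28 were at least 2-fold higher in TP (70%), where 8.07% of all 17575 genes with as many UMIs were. At least 2-fold lower were 2 members (5%), Cxcl5 and Cx3cr1, against 10.9% of all genes. The minimum of 50 UMIs counted both libraries together, for members and all genes alike. A gene could therefore pass it through 1 library alone, as Cxcl3 did with 0 control and 87 TP UMIs. On the log2 scale the median ratio, TP over control, was 2.43 for the members and -0.244 for all genes. Among the ligands 22 of 30 were higher and 1 was lower, and among the receptors 6 of 10 were higher and 1 was lower. With each class held at its share in control, 20 members were at least 2-fold higher and 1 lower, with a median log2 ratio of 1.07, against 3.81% and 3.47% of all genes and a median of -0.11. Named classes were held whole, so differences in the mix of clusters within a class, as in macrophage-like cells below, remain in the values at control shares. Without the macrophage-, dendritic-, neutrophil- and lymphocyte-like classes, a setting chosen after seeing the data, 18 of 32 members were higher and 1 lower, against 7.01% and 11.3% of all genes in those cells. Thinning every cell to 1000 UMIs left 29 members, of which 18 were higher (9.15% of all genes), and a pseudocount of 0.1 on counts per 10000, large beside most member levels, left 4 (1.7% of all genes). Scaling by TMM factors moved the median of all genes from -0.244 to 0.0171, called 29 members higher and 1 lower (11.3% and 6.11% of all genes), and turned the small differences of Cxcl14, Ccl27a and Ccr10, lower in TP as printed below, into ratios of 1.07, 1.15 and 1.11. Levels within a class are per UMI of that class and do not use these factors.

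**Figure D1:**
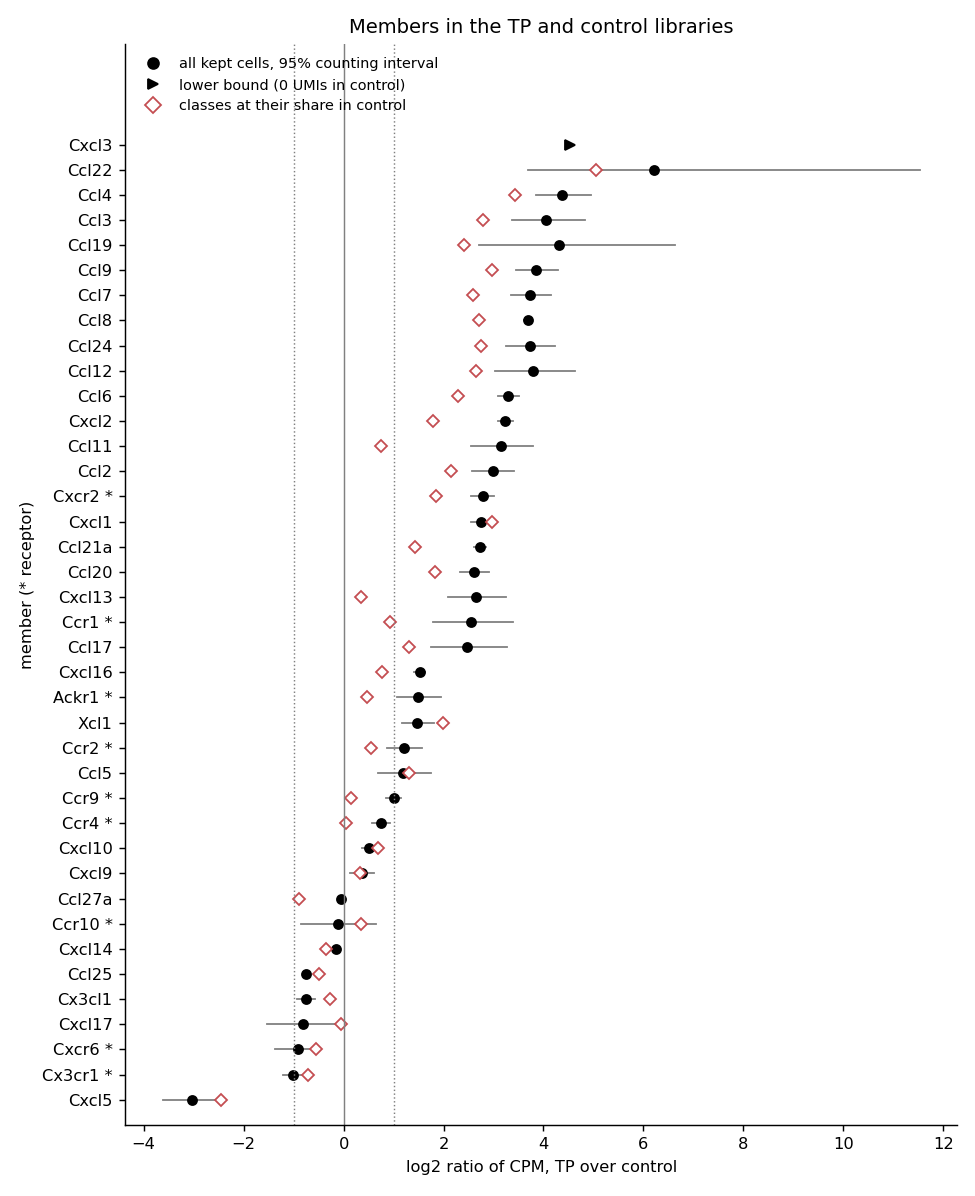
Log2 ratio of CPM (TP over control, x axis) for 39 members with at least 50 UMIs (y axis, receptors starred), with black points for all kept cells and bars for the 95% counting interval, and open diamonds for the ratio with classes at their share in control. Most ligands lie to the right of the dotted line at 2-fold, Cxcl5 lies far to the left, and for most members the diamond lies closer to 0 than the point.

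A single class held over 50% of a member's UMIs in both libraries for 15 members. These were Ccl8, Ccl12 and Ccl24 in macrophage-like cells, Cxcl2 and Ccl3 in neutrophil-like cells, Ccr2 in dendritic-like cells, Xcl1 and Cxcr6 in lymphocyte-like cells, Cxcl13 and Ccl11 in DF-like cells, Cxcl5 in DPC-like cells, Ccl21a in lymphatic endothelial-like cells, and Cxcr2, Ccr4 and Ccr9 in IFE suprabasal-like cells. Ccl25, Cx3cl1 and Cx3cr1 had UMIs in nearly all classes, with no leading class. The same count over all genes was not computed, so the 15 members are not set against a background. Classes also differed in size. IFE suprabasal-like cells held 18539785 of the 106767401 kept UMIs in control and 53943172 of 134201942 in TP.

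**Figure D2:**
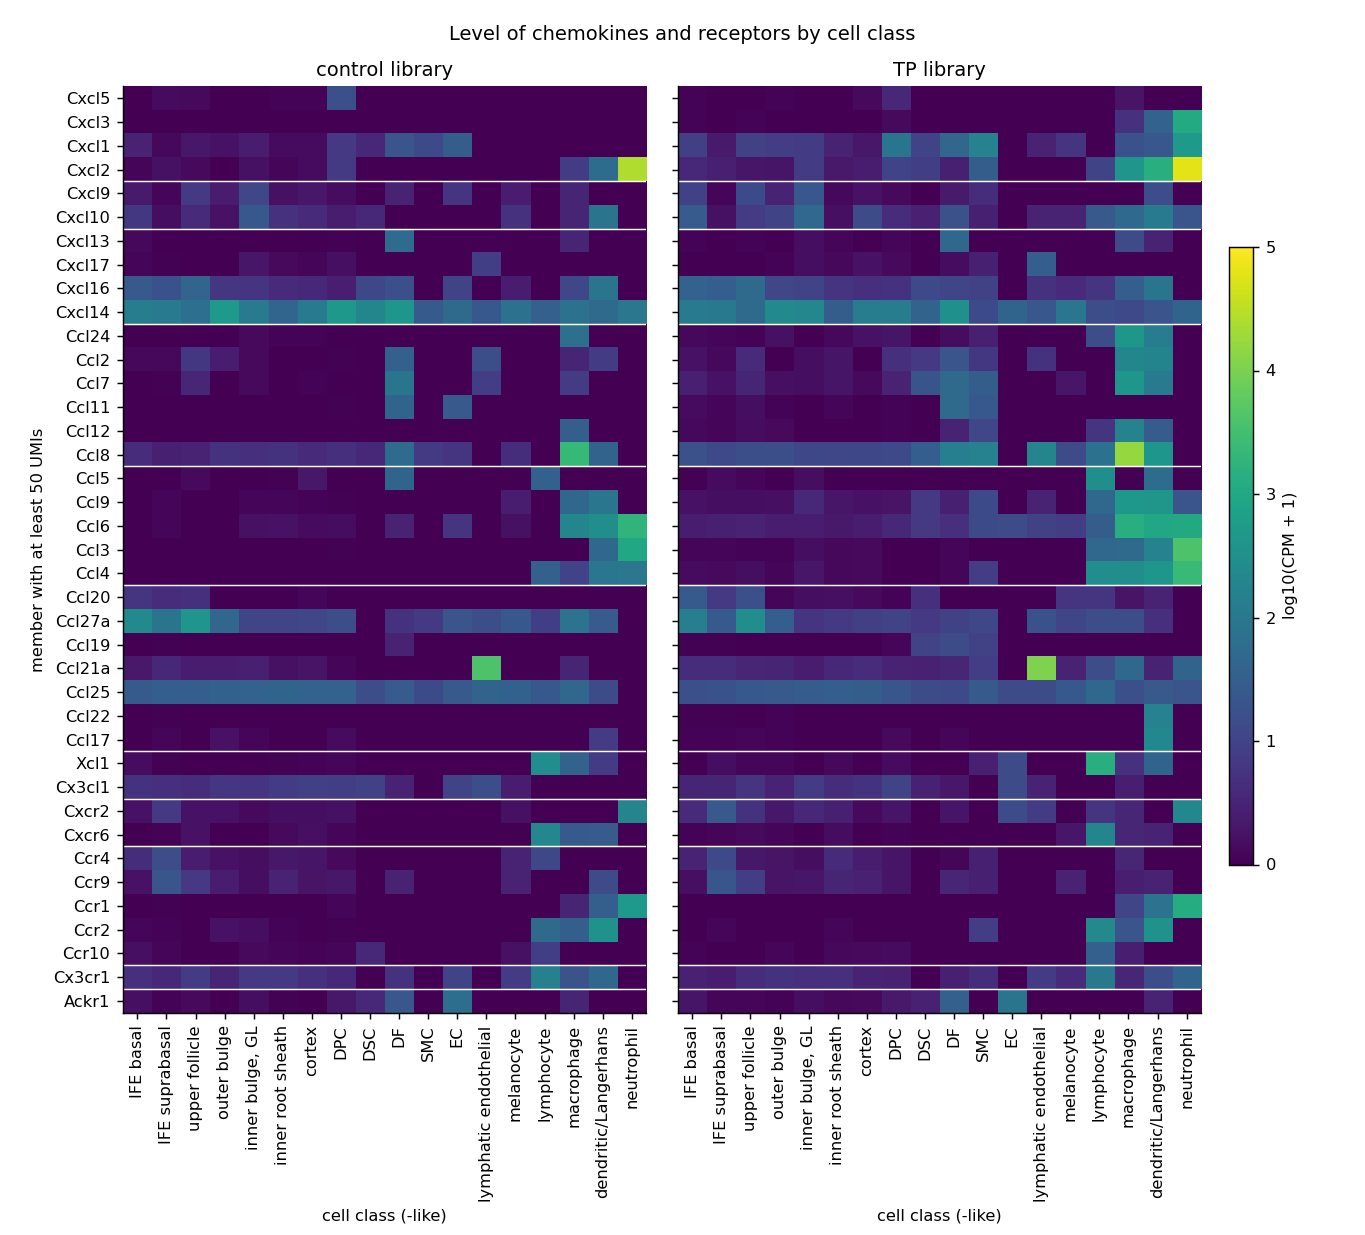
Level of 39 members with at least 50 UMIs (rows, grouped by family) in each cell class (columns) as log10(CPM + 1), control library left and TP library right. The brightest cells are Cxcl2 in neutrophil-like, Ccl8 in macrophage-like and Ccl21a in lymphatic endothelial-like cells, and Ccl8 is brighter in TP than in control in nearly every column.

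In the TP library macrophage-like cells held the most UMIs of Ccl2, Ccl4, Ccl6, Ccl7, Ccl8, Ccl9, Ccl12 and Ccl24. Of 13 members with at least 50 UMIs in this class, 12 were at least 2-fold higher in TP, where 12.8% of all genes were, and 1, Ccl27a, was at least 2-fold lower, against 20% of all genes. This minimum counted both libraries together, for members and all genes alike. The TP library held more UMIs of the class (1203105 against 444535). Members high in TP could pass on that library alone, as Ccl3 did with 0 control and 63 TP UMIs. The count of 12 of 13 is therefore partly set by the filter. The class held 143 control and 222 TP cells and was uneven: its leading cluster held 33 control and 170 TP cells, while a cluster that also carried lymphocyte genes held 83 and 33. The class ratios therefore mix clusters, and for most ligands they are followed by the ratio in the leading cluster alone. This setting was added after the data were seen. In that cluster, led by C1qa, C1qb, C1qc and Mrc1, Ccl12 and Ccl24 were no longer 2-fold higher (log2 ratios 0.88 and 0.60 with the pseudocount), and Ccl21a had too few UMIs for a comparison, since 53 of the class's 56 TP UMIs of Ccl21a were in the cluster that carried lymphocyte genes and the whole class had 1 in control. Ccl3 and Cxcl10 had no control UMI in the leading cluster and 41 and 37 in TP. Against a floor of 3 UMIs they were at least 1.37-fold and 1.24-fold higher, which does not establish a 2-fold difference.

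Ccl8 was counted 973 times in 143 control cells and 19832 times in 222 TP cells of the macrophage-like class, a level of 2189 CPM [2053-2331] in control and 16480 [16260-16720] in TP. The intervals were far apart, with a ratio of 7.53 [7.06-8.04]. Over all cells the ratio was 12.93 [12.25-13.66], and 6.52 at control shares. In the leading cluster the levels were 9293 and 20030 CPM, a ratio of 2.16 [2.01-2.31], so that the difference held there at a smaller size. After every cell was thinned to 1000 UMIs, 29.4% [21.9-37.8] of 136 control and 90% [85.3-93.7] of 221 TP macrophage-like cells had a Ccl8 UMI (37.8% and 91% unthinned). These shares also mix the clusters, and shares within the leading cluster were not computed. The leading cluster held 838 of the 973 control and 18008 of the 19832 TP Ccl8 UMIs of the class. In inner root sheath-like cells, which should lack the gene, the thinned shares were 0.673% and 1.94%, with median depths of 1846 and 3995 UMIs against 2803 and 5176 in macrophage-like cells. Ccl8 in inner root sheath-like cells was 4.38 CPM in control and 10.6 in TP (ratio 2.42 [1.72-3.39]). Ccl8 levels of this order in keratinocyte classes of the TP library, such as 11.98 CPM in IFE suprabasal-like and 14.7 CPM in upper hair follicle-like cells, lie near that background. DF-like cells stood above it in both libraries, at 55.1 CPM in control and 143 in TP (ratio 2.597 [1.74-4.04]), and at 59.3 and 266 CPM in their largest cluster (ratio 4.48 [2.73-7.90]). Other classes also stood above it in TP, such as dendritic-like (428 CPM), lymphatic endothelial-like (189 CPM) and smooth muscle and pericyte-like cells (160 CPM). These had only 6, 0 and 1 control UMIs.

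The macrophage inflammatory CC ligands, several of which act on Ccr1, were all at least 2-fold higher in TP over all cells (5 of 5 against 8.07% of all genes, median log2 ratio 3.83). Ccl6 was 1.93 CPM in control and 19.0 in TP over all cells (ratio 9.84 [8.54-11.4], 4.86 at control shares), and 198 and 1452 CPM in macrophage-like cells. Ccl9 was 0.468 and 6.80 CPM over all cells (ratio 14.5 [10.9-19.7], 7.84 at control shares), and 44.99 and 472.9 CPM in macrophage-like cells. In the leading macrophage-like cluster both remained higher in TP, Ccl6 by 2.23 [1.75-2.89] and Ccl9 by 2.80 [1.73-4.84]. Dendritic-like cells also carried both, Ccl6 at 291 and 946 CPM (ratio 3.25, 33 of the 45 control UMIs in 1 cell) and Ccl9 at 90.5 and 450 CPM (ratio 4.97), with ratios of 2.07 [1.52-2.87] and 3.08 [1.80-5.74] in the leading dendritic-like cluster.

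Ccl3 and Ccl4, whose loci overlap in the annotation, were rare in control. Ccl3 had 18 UMIs in control (0.169 CPM) and 375 in TP (2.79 CPM), a ratio of 16.6 [10.3-28.3] and of 6.89 at control shares. Ccl4 had 30 UMIs in control (0.281 CPM) and 783 in TP (5.83 CPM), a ratio of 20.8 [14.4-31.0] and of 10.8 at control shares. Neutrophil-like cells held 53.1% of the Ccl3 UMIs in TP and macrophage-like cells 44.3% of the Ccl4 UMIs. In the leading macrophage-like cluster Ccl4 was not found in 33 control cells and was at 237 CPM in 170 TP cells, at least 7.12-fold higher against a floor of 3 UMIs. Ccl5, a ligand of T cells and natural killer cells, was 0.393 CPM in control and 0.902 in TP (ratio 2.29 [1.60-3.34]). Its control UMIs lay in only 13 cells, 18 of the 42 UMIs in DF-like cells and 11 of these in 1 cell. Its 121 TP UMIs lay in 24 cells, with 53.7% of the UMIs in lymphocyte-like cells and 35 UMIs in 1 of these cells.

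The monocyte- and eosinophil-attracting CC ligands, to which Ccl8 belongs, were at least 2-fold higher throughout over all cells (6 of 6 tested against 8.07% of all genes, median log2 ratio 3.69). Ccl2 and Ccl7 are ligands of Ccr2. Ccl2 had 53 UMIs in control, 15 of them in DF-like and 15 in upper hair follicle-like cells, and 527 in TP, 45.2% of them in macrophage-like cells (ratio over all cells 7.91 [5.96-10.7], 4.42 at control shares). Ccl7 had 57 UMIs in control, 68.4% of them in DF-like cells, and 957 in TP, 52.4% of them in macrophage-like cells (ratio 13.4 [10.2-17.8], 6.03 at control shares).

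In macrophage-like cells Ccl2 was 2.25 CPM in control and 198 in TP, and Ccl7 was 6.75 and 416 CPM. In the leading cluster Ccl2 was 11.1 and 238 CPM (1 and 214 UMIs, ratio 21.5 [3.81-852]) and Ccl7 was 22.2 and 472 CPM (2 and 424 UMIs, ratio 21.3 [5.85-176]). These were wider differences than that of Ccl8 in the same cluster, although they rest on 1 and 2 control UMIs. In DF-like cells as a class Ccl7 was 85.9 CPM in control and 53.4 in TP (39 and 238 UMIs), and Ccl2 was 33.1 and 20.2 CPM (15 and 90 UMIs), but a single control cell held 34 of the 39 Ccl7 and all 15 of the Ccl2 UMIs. In the largest DF-like cluster, of 82 control and 216 TP cells, neither had a UMI in control, and they stood at 66.0 and 25.8 CPM in TP, at least 5.93-fold and 2.32-fold higher against a floor of 3 UMIs.

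Ccl12, another ligand of Ccr2, was 31.5 CPM in control and 170 in TP macrophage-like cells (leading cluster ratio 2.06 [1.02-4.84]). Ccl24, an eotaxin that acts on Ccr3, was 69.7 and 436 CPM in the same cells (leading cluster ratio 1.57 [1.05-2.43]). Both therefore had intervals that reached close to 1 in the leading cluster. Ccl11, the eotaxin of fibroblasts, was 0.234 CPM in control and 2.06 in TP over all cells (ratio 8.82 [5.85-13.9]), but only 1.67-fold higher with classes at their share in control. In DF-like cells it was 39.7 CPM in control and 53.4 in TP (ratio 1.35 [0.833-2.31]), an interval that includes 1, while DF-like cells were 129 of the control and 491 of the TP cells. In the largest DF-like cluster Ccl11 was 37.08 and 71.97 CPM, on 10 control and 120 TP UMIs. The ratio there was 1.941 [1.02-4.151], with the lower end of the interval just above 1.

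**Figure D3:**
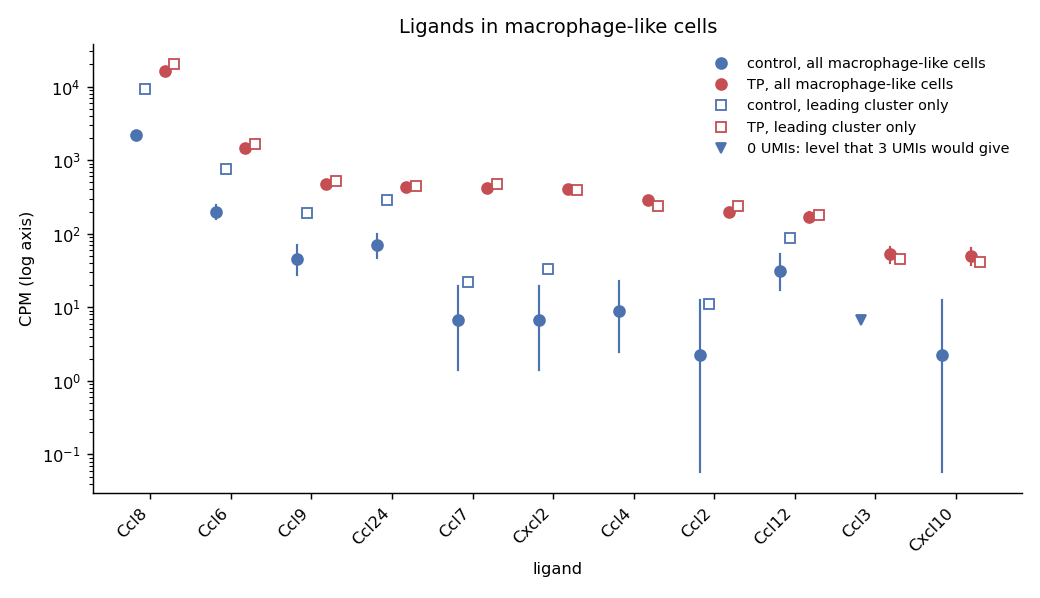
CPM (log axis) of 11 ligands in macrophage-like cells of control and TP, filled points for the whole class with 95% counting intervals, open squares for the leading cluster, and triangles at the level that 3 UMIs would give where none was counted. For each of the 11 ligands the TP point is higher, and for Ccl8 the gap is smaller in the leading cluster (9293 against 20030 CPM).

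The neutrophil-attracting CXC ligands, which act on Cxcr2, split by gene and cell class: 3 of the 4 had at least 2-fold higher levels in TP, and Cxcl5 had a lower one (8.07% and 10.9% of all genes). Cxcl2 was 3.71 CPM in control and 34.8 in TP (ratio 9.38 [8.47-10.4], 3.45 at control shares). Neutrophil-like cells, led by S100a8, S100a9 and Retnlg, held 67.4% of its UMIs in control and 67.2% in TP. There were 9 of these cells in control and 36 in TP, and the Cxcl2 level of these cells was 25450 CPM in control and 62320 in TP. With only 9 control cells no ratio is given for this class.

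Cxcl2 was also higher in TP in antigen-presenting cells. In dendritic-like cells it was 58.2 CPM in control and 1442 in TP (9 and 724 UMIs, ratio 24.78 [12.98-54.41]), with 21.1% of thinned TP cells carrying a UMI against 0.108% of inner root sheath-like cells. In macrophage-like cells it was 6.75 and 406 CPM (leading cluster ratio 11.7 [3.96-56.9]). Cxcl3 had no UMI in the control library and 87 in TP (0.648 CPM), at least 23.1-fold higher against a floor of 3 UMIs in control. Of these UMIs, 65.5% were in neutrophil-like and 20.7% in dendritic-like cells, in 23 cells altogether.

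Cxcl1 followed a different pattern, with its main source in the dermal mesenchyme. It was 1.82 CPM in control and 12.3 in TP (ratio 6.75 [5.81-7.87]), and it remained higher with classes at their share in control (ratio 7.82). DPC-like cells had 71 UMIs in 4158 control cells (5.78 CPM) and 808 UMIs in 1642 TP cells (85.2 CPM), a ratio of 14.8 [11.6-19.1]. The DPC-like class also mixes clusters, and its 2 largest gave 9.06 and 183 CPM (ratio 20.2 [14.8-27.8]) and 3.13 and 80.4 CPM (ratio 25.7 [16.1-43.7]). The thinned share of DPC-like cells with a Cxcl1 UMI was 0.604% in control and 2.93% in TP, against 0.0306% and 0.323% in inner root sheath-like cells. Smooth muscle and pericyte-like cells had 12.3 CPM in control and 164 in TP (2 and 92 UMIs, 78 of the latter in 1 cell), and DF-like cells had 19.8 and 43.5 CPM. All 9 control UMIs of DF-like cells lay in 1 cluster (25 control and 82 TP cells), 6 of them in 1 cell, at 103 CPM in control and 60.2 in TP, while the largest DF-like cluster had none in control and 40.8 CPM in TP.

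Cxcl5 went the other way in the same cells. It had 216 UMIs in control (2.02 CPM) and 33 in TP (0.246 CPM), a ratio of 0.122 [0.0816-0.176], and DPC-like cells held 90.7% and 75.8% of them. Within DPC-like cells it was 16.0 CPM in control and 2.64 in TP (ratio 0.165 [0.104-0.251]). One of the large DPC-like clusters held 68.1% of all Cxcl5 UMIs in control and 57.6% in TP, at 25.5 and 2.69 CPM (ratio 0.105 [0.0617-0.171]). The other large one held 18.1% and 15.2%, at 6.79 and 4.15 CPM, with an interval that includes 1 (0.188-1.55). In the first cluster, of 1563 control and 1013 TP cells, Cxcl1 was the gene that was 25.7-fold higher in TP.

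**Figure D4:**
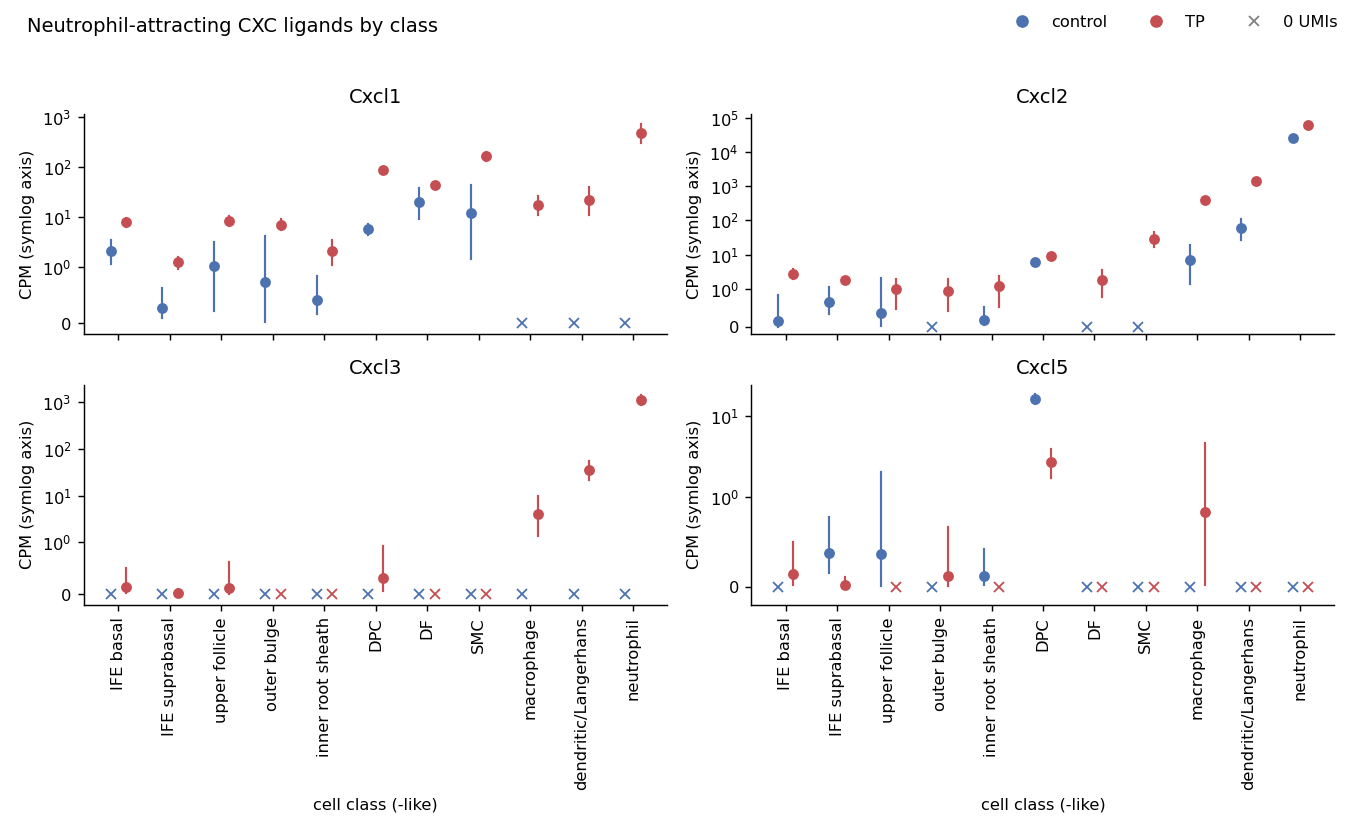
CPM (symmetric log axis) of Cxcl1, Cxcl2, Cxcl3 and Cxcl5 by cell class, control and TP side by side, with 95% counting intervals and crosses for 0 UMIs. Cxcl1 is higher in TP and Cxcl5 lower in TP in DPC-like cells, whereas Cxcl2 and Cxcl3 peak in neutrophil-like cells.

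The interferon-induced ligands Cxcl9 and Cxcl10, which act on Cxcr3 of activated T cells, were not among the called members. Cxcl9 was 2.22 CPM in control and 2.88 in TP (ratio 1.30 [1.10-1.53]), and Cxcl10 was 6.64 and 9.43 CPM (ratio 1.42 [1.30-1.56]). A single IFE basal-like cell of the TP library held 355 of the 1266 Cxcl10 UMIs (28%) and 121 of the 386 Cxcl9 UMIs (31.3%) of its library, out of 22281 UMIs in that cell. Without the 10 cells of each library with the most UMIs of the gene, the ratio was 0.981 for Cxcl10 and 0.554 for Cxcl9. Between classes the Cxcl10 ratio went both ways. It was lower in TP in inner root sheath-like cells, at 4.26 CPM in control and 0.596 in TP (ratio 0.140 [0.0371-0.374]). It was higher in cortex-like (4.32 [2.597-7.24]), inner bulge germinative layer-like (2.27 [1.73-2.98]) and upper hair follicle-like cells (2.38 [1.14-5.76]), and in outer bulge- and macrophage-like cells, which had 1 control UMI each and 82 and 59 in TP. In the leading macrophage-like cluster Cxcl10 had 0 and 37 UMIs, at least 1.24-fold higher against a floor of 3 UMIs.

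Cxcl14 was the member with the most UMIs in control and showed opposite directions in different classes. Over all cells it was 147 CPM in control and 132 in TP (ratio 0.895 [0.876-0.914]). In DPC-like cells it was 454 CPM in control and 126 in TP (ratio 0.277 [0.260-0.295]), and the thinned share of cells with a UMI was 24.8% [23.4-26.2] and 7.16% [5.92-8.56], against 4.56% and 2.48% in inner root sheath-like cells. The DPC-like cluster with most of the Cxcl5 had 623 and 123 CPM (ratio 0.197 [0.182-0.212]), and the other large one had 315 and 211 CPM (ratio 0.669 [0.584-0.763]). Dermal sheath cup-like cells (197 and 38.0 CPM) and outer bulge-like cells (483 and 250 CPM) were lower in TP as well. Inner bulge germinative layer-like cells were higher, at 111 and 206 CPM (ratio 1.86 [1.63-2.11]). In IFE basal-like cells the levels were 125 and 116 CPM, with an interval that includes 1 (0.856-1.01).

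Cxcl16, the transmembrane ligand of Cxcr6, was higher in TP in the epidermis. It was 7.91 CPM in control and 22.7 in TP over all cells (ratio 2.87 [2.66-3.10]), and 1.69-fold higher with classes at their share in control. In IFE suprabasal-like cells it was 16.9 and 30.4 CPM (ratio 1.80 [1.60-2.04], between 1.42 and 2.99 in the 3 clusters), in IFE basal-like cells 24.0 and 36.0 CPM (ratio 1.496 [1.251-1.797]), and in upper hair follicle-like cells 42.1 and 51.5 CPM (ratio 1.22 [0.996-1.51]). Cxcl13, the ligand of Cxcr5 that attracts B cells, was 0.272 and 1.70 CPM over all cells but only 1.27-fold higher with classes at their share in control, and DF-like cells held 86.2% and 88.6% of it. In that class Cxcl13 was 55.1 and 45.3 CPM (ratio 0.822 [0.541-1.301]), in its largest cluster 25.96 and 63.6 CPM (ratio 2.45 [1.15-6.24]), and 1 TP cell held 62 of the UMIs (27.2% of the library's). Cxcl17 had 42 UMIs in control and 30 in TP (ratio 0.568 [0.343-0.930], 0.960 at control shares).

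Among the CC ligands that attract lymphocytes and dendritic cells, 5 of 7 were at least 2-fold higher in TP, against 8.07% of all genes, and for Ccl17 and Ccl22 most TP UMIs came from 1 cell. Ccl20, the ligand of Ccr6, was 1.02 CPM in control and 6.23 in TP (ratio 6.10 [4.99-7.52], 3.53 at control shares), in 32 and 180 cells. It was a ligand of keratinocytes in both libraries. IFE basal-like cells had 4.78 CPM in control and 25.3 in TP (ratio 5.29 [3.68-7.86], 1.999 [0.886-5.29] in the smallest of its clusters), upper hair follicle-like cells had 3.96 and 15.3 CPM (ratio 3.86 [2.09-7.92]), and IFE suprabasal-like cells had 3.24 and 5.71 CPM (ratio 1.76 [1.33-2.37]). All 60 control UMIs of the last class were in 1 of its 3 clusters, 31 of them in a single cell, and there the ratio was 1.01 [0.748-1.37]. In the other two clusters Ccl20 had no control UMI and was at least 8.60-fold and 6.88-fold higher in TP. Over all cells the ratio was 16.4 without the 10 cells of each library with the most Ccl20 UMIs.

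Ccl27a (ENSMUSG00000073888), which acts on Ccr10 of skin-homing T cells, was nearly level over all cells, at 49.7 CPM in control and 47.9 in TP (ratio 0.963 [0.928-0.999]). Over the interfollicular and upper follicle classes it was lower in TP. IFE suprabasal-like cells had 84.9 CPM in control and 24.6 in TP (ratio 0.290), IFE basal-like cells had 241 and 135 CPM (ratio 0.559), and upper hair follicle-like cells had 409 and 283 CPM (ratio 0.693). The IFE basal-like clusters were uneven, and 1 of the 3 (1123 control and 1270 TP cells) had 87.4 and 96.1 CPM (ratio 1.10 [0.899-1.35]). The 3 IFE suprabasal-like clusters had ratios between 0.232 and 0.503. With classes at their share in control the ratio was 0.537. Ccl27a and Ccl27b are near-identical copies, so their reads may be split between them. Its second copy had 1 UMI.

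Ccl21a (ENSMUSG00000094686), likewise one of several near-identical copies, was 6.14 CPM in control and 40.7 in TP (ratio 6.63 [6.11-7.20], 2.69 at control shares). Lymphatic endothelial-like cells, led by Reln, Mmrn1 and Prox1, held 82% of it in control and 91.7% in TP. In these cells it was 4049 CPM [3714-4406] in 57 control cells and 10750 [10450-11050] in 162 TP cells (ratio 2.65 [2.43-2.91]), and the thinned share with a UMI was 34.1% [20.5-49.9] and 66.4% [57.5-74.5]. Their share of cells was 0.146% in control and 0.874% in TP, so both their share and the level in them were higher in the TP library. Ccl19, the other ligand of Ccr7, had 3 UMIs in control and 75 in TP (ratio 19.9 [6.55-98.6], 5.35 at control shares), 76% of them in DF-like cells.

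Ccl17 and Ccl22, ligands of Ccr4, rested on very few cells. Ccl22 had 1 UMI in control and 93 in TP, and Ccl17 had 18 and 125. A single dendritic-like cell of the TP library held 79 of the Ccl22 and 79 of the Ccl17 UMIs, 84.9% and 63.2% of the library's total. Without the 10 highest cells Ccl17 had a ratio of 1.19, and Ccl22 could not be compared. Ccl25, the ligand of Ccr9, was 32.7 CPM in control and 19.4 in TP (ratio 0.595 [0.565-0.626]), and its level in inner root sheath-like cells, 39.1 and 30.2 CPM, was close to that in other classes.

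Xcl1, which natural killer and T cells release to attract Xcr1-bearing dendritic cells, was 0.983 CPM in control and 2.74 in TP (ratio 2.78 [2.23-3.49]). In lymphocyte-like cells it was 283 and 1423 CPM (ratio 5.02). The 172 control and 85 TP lymphocyte-like cells came mostly from different clusters. In the 1 lymphocyte-like cluster with at least 20 cells of each library (28 control and 37 TP cells), Xcl1 was 650 and 2988 CPM (ratio 4.599 [3.24-6.70]). Xcl1 was carried by few cells, 44 in control and 47 in TP, and without the 10 highest of each library its ratio was 0.899. Cx3cl1, the membrane-bound ligand of Cx3cr1, was 5.61 and 3.32 CPM (ratio 0.591 [0.522-0.669]) with no leading class.

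For 3 receptors most UMIs were in IFE suprabasal-like cells rather than in leukocytes. Cxcr2, the receptor of the neutrophil-attracting ligands, had 171 UMIs in control (1.60 CPM) and 1477 in TP (11.01 CPM), a ratio of 6.87 [5.86-8.10] and of 3.62 at control shares. IFE suprabasal-like cells held 63.2% of these in control and 87.9% in TP, and within them it was 5.83 and 24.1 CPM (ratio 4.13 [3.40-5.08]). The 3 clusters of this class each showed the difference, at 8.60 and 32.1 CPM (ratio 3.73 [2.99-4.70]), 2.62 and 15.9 CPM (ratio 6.07 [3.56-11.3]), and 2.28 and 8.39 CPM (ratio 3.68 [1.68-9.58]). The thinned share of IFE suprabasal-like cells with a Cxcr2 UMI was 0.59% [0.366-0.901] in control and 1.49% [1.17-1.88] in TP, against 0.0612% and 0.108% in inner root sheath-like cells, with median depths of 3347 and 8115.5 UMIs. Neutrophil-like cells, the textbook site of Cxcr2, held 218 CPM in the TP library.

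Ccr4 and Ccr9, known as receptors of skin-homing and gut-homing T cells, sat in the same class and did not show such a difference over the class as a whole. Ccr4 was 14.3 CPM in control and 11.8 in TP in IFE suprabasal-like cells (ratio 0.826 [0.715-0.957]), and Ccr9 was 19.9 and 20.9 CPM (ratio 1.05 [0.934-1.19]). The 3 clusters were uneven for Ccr9, with ratios of 0.896 [0.777-1.04], 1.29 [0.967-1.73] and, at 6.92 and 13.5 CPM, 1.96 [1.38-2.85]. For Ccr4 they were 0.665 [0.531-0.837], 0.987 [0.738-1.33] and 1.03 [0.798-1.35]. Over all cells Ccr9 was called at 4.84 and 9.71 CPM (ratio 2.01 [1.81-2.22]), but with classes at their share in control the ratio was 1.11. Its thinned share was 2.19% in control and 2.16% in TP IFE suprabasal-like cells, against 0.199% and 0.108% in inner root sheath-like cells. Ccr9 overlaps another annotated gene, so a part of its UMIs may belong there. Other members overlap annotated genes too, among them Ccl27a (Il11ra1), Cxcl10 (Art3), Cxcl16 (Zmynd15), Cxcr6 (Fyco1), Cx3cr1 (Gm33858) and Ccr10 (Cntnap1). The same limit holds for them.

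The myeloid receptors Ccr1 and Ccr2 were higher over all cells, and for Ccr2 the classes differed in size and direction. Ccr1, a receptor of Ccl3, Ccl6 and Ccl9, had 16 UMIs in control and 117 in TP (ratio 5.82 [3.436-10.51], 1.90 at control shares), 54.7% of the latter in neutrophil-like cells. Ccr2, the monocyte receptor of Ccl2, Ccl7 and Ccl12, was 0.880 and 2.04 CPM (ratio 2.32 [1.83-2.96], 1.46 at control shares). In dendritic-like cells Ccr2 was 349 CPM in control and 370 in TP (ratio 1.06 [0.780-1.46]), and in lymphocyte-like cells 52.2 and 224 CPM (ratio 4.29 [2.32-8.43]). Both classes hold clusters in different proportions in the libraries. In the leading dendritic-like cluster Ccr2 was 663 and 443 CPM (ratio 0.668 [0.488-0.930]), and in the shared lymphocyte-like cluster 235 and 419 CPM (ratio 1.79 [0.937-3.64]). In macrophage-like cells it was 31.5 and 19.95 CPM (ratio 0.633 [0.315-1.32], 7 of the 14 control UMIs in 1 cell), and in their leading cluster 77.6 and 3.34 CPM on 7 and 3 UMIs (ratio 0.0430 [0.00717-0.188]).

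The remaining receptors were lower or level in TP, apart from Ackr1. Cxcr6, the receptor of Cxcl16 on T cells, was 0.937 and 0.499 CPM (ratio 0.533 [0.385-0.734]), with 205 and 186 CPM in lymphocyte-like cells. Cx3cr1, a receptor of monocytes and Langerhans cells, was 4.93 CPM in control and 2.44 in TP (ratio 0.496 [0.431-0.571]) and had no leading class. It was no longer called at control shares (ratio 0.607) or with TMM factors (0.594). In lymphocyte-like cells it was 149 and 105 CPM (ratio 0.702 [0.398-1.21]), above its level in inner root sheath-like cells (5.90 and 3.87 CPM). In the shared lymphocyte-like cluster the ratio was 1.31 [0.365-5.81] for Cx3cr1 (4 and 9 UMIs) and 1.63 [0.554-5.77] for Cxcr6 (5 and 14 UMIs). Both intervals include 1. Ccr10 had 30 UMIs in control and 35 in TP (ratio 0.928 [0.554-1.57]). Ackr1, which binds chemokines on venular endothelium, was 0.534 and 1.51 CPM (ratio 2.82 [2.09-3.85]). It was 63.2 and 81.2 CPM in endothelial-like cells and 22.0 and 32.5 CPM in DF-like cells, each with a ratio interval that includes 1, and 1.38-fold higher with classes at their share in control. Ackr1 overlaps Cadm3 in the annotation.

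**Figure D5:**
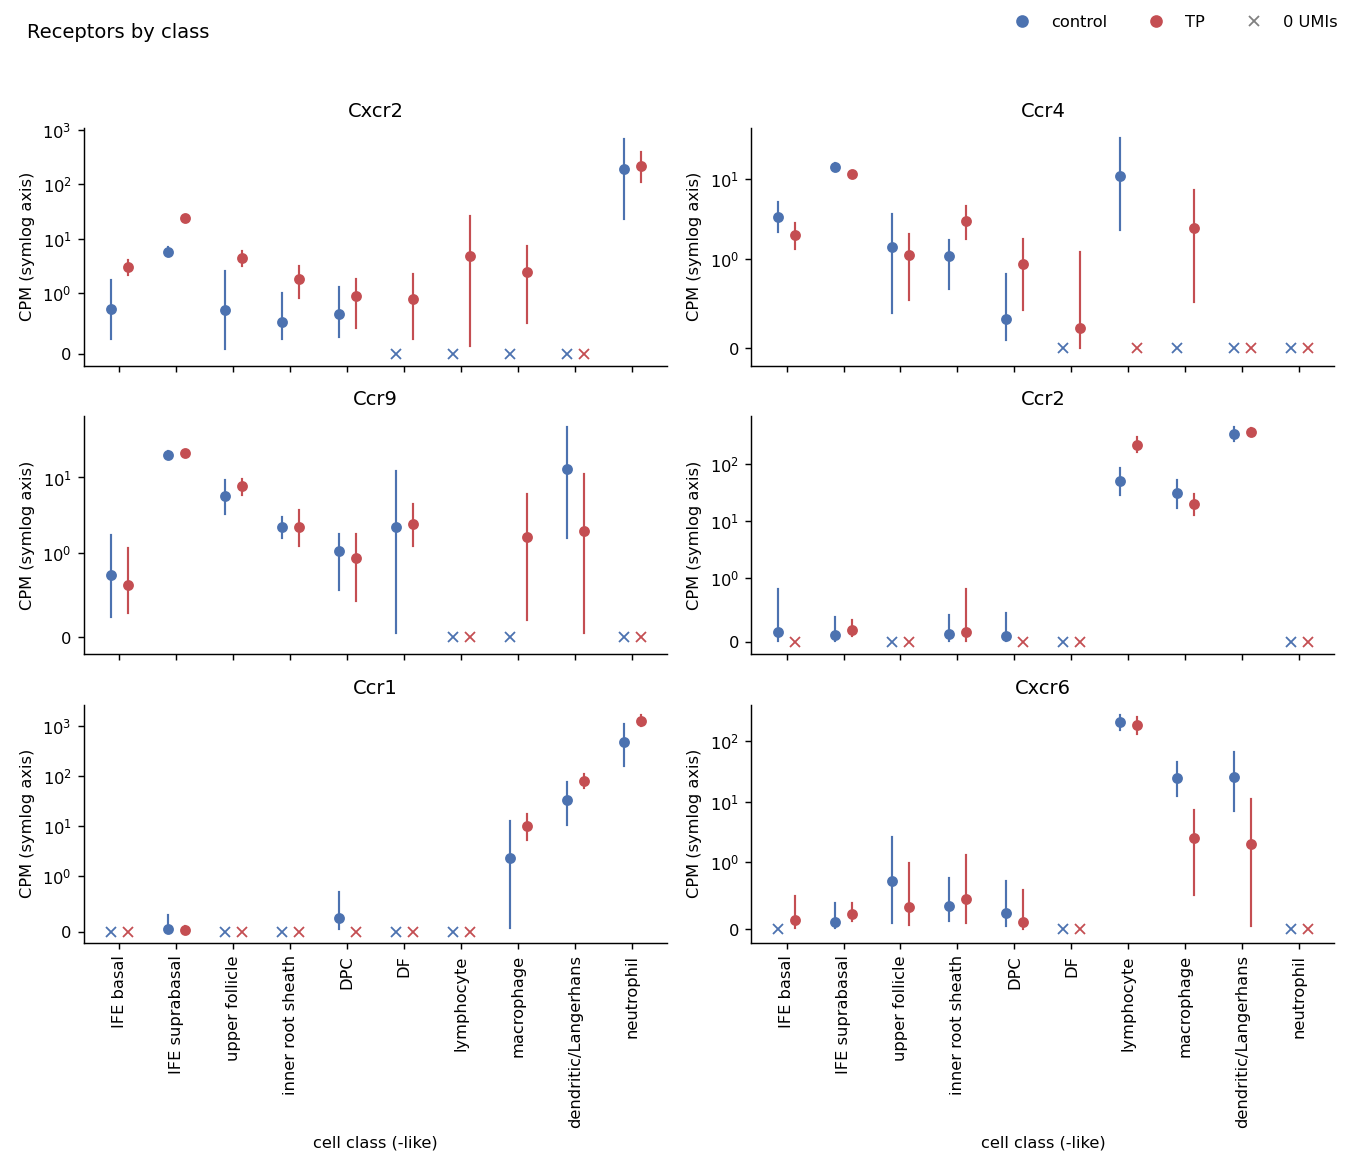
CPM (symmetric log axis) of Cxcr2, Ccr4, Ccr9, Ccr2, Ccr1 and Cxcr6 by cell class in control and TP, with 95% counting intervals and crosses for 0 UMIs. In IFE suprabasal-like cells Cxcr2 is 5.83 CPM in control and 24.1 in TP, while Ccr4 and Ccr9 differ little.

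Calls were counted in macrophage-, DPC-, DF-, IFE basal-, IFE suprabasal- and upper hair follicle-like cells. Among these classes the members differed most often in macrophage-like cells, whose clusters were in different proportions in the libraries. Other classes, such as dendritic-like cells, were not counted in this way. In DPC-like cells 4 of 11 reached a 2-fold higher level in TP (Cxcl1, Cxcl10, Cxcl16 and Ccl8) and 2 a 2-fold lower one (Cxcl5 and Cxcl14), against 4.02% and 8.06% of all genes. In DF-like cells 3 of 12 were higher (Ccl19, Cxcl10 and Ccl8) and 1 lower (Ccl25), against 3.23% and 10.2%. In IFE basal-like cells 6 of 13 were higher (Ccl20, Ccl21a, Cxcl1, Cxcl9, Cxcl10 and Ccl8) and 1 lower (Cx3cr1), against 1.49% and 3.25%. In IFE suprabasal-like cells 5 of 15 were higher (Cxcr2, Cxcl1, Cxcl2, Ccl8 and Ccl6) and 2 lower (Ccl27a and Cx3cr1), against 2.09% and 11.1%. In upper hair follicle-like cells 4 of 11 were higher (Ccl20, Cxcl1, Cxcl10 and Ccl8) and 0 lower, against 1.86% and 2.9%. Several of these calls were at TP levels of the same order as in the inner root sheath-like class. This holds for Ccl8 in the keratinocyte classes and in DPC-like cells (11.8 CPM against 10.6), for Ccl21a in IFE basal-like cells (3.47 against 2.68), and for Ccl6 and Cxcl2 in IFE suprabasal-like cells (1.80 and 1.78, each against 1.19). Cxcl1 in IFE suprabasal-like cells (1.26 against 2.09) and Cxcl16 in DPC-like cells (4.32 against 4.62) were below the inner root sheath-like level, as was Cx3cr1 in IFE basal- and suprabasal-like cells (1.94 and 1.35 against 3.87). The Cxcl9 and Cxcl10 calls in IFE basal-like cells rest on the single cell described above. The Cxcl10 call in DPC-like cells rests on 19 control and 31 TP UMIs, the latter in 11 cells, and the Ccl25 call in DF-like cells on 12 control UMIs. In DF-like cells the Ccl19 call rests on 1 control and 57 TP UMIs, and the Cxcl10 call on 0 control and 72 TP UMIs.

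The 10 members below 50 UMIs included 6 receptors and 4 ligands. Ccr7, the receptor of Ccl19 and Ccl21a, had 10 UMIs in control and 32 in TP, and Cxcr3 had 8 and 25. Cxcr5 had 19 and 21, Ccr8, a receptor of Ccl8 and Ccl1 in mice, had 5 and 7, Ccr6 had 9 and 6, and Ccr3, the eotaxin receptor, had 0 and 1. Of the ligands, Ccl1 had 7 and 13, Ccl28 had 5 and 2, and Ccl26 had 1 and 2. For Ccr7 (ratio 2.55 [1.22-5.81], 1.64 at control shares) and Cxcr3 (ratio 2.49 [1.09-6.38], 1.41 at control shares) the counting intervals lay above 1. These intervals treat UMIs as independent, and 15 cells held the 32 TP UMIs of Ccr7, with 8 in 1 cell. Differences in the other members below 50 UMIs were not detectable at this depth.

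Of 36 other genes of chemokine signalling and its inducers, 31 could be compared. At least 2-fold higher in TP were 9 and lower were 3, with a median log2 ratio of 0.285, against 8.07% and 10.9% of all genes. Pf4, a platelet and macrophage CXC chemokine named outside the rule, was 2.02 CPM in control and 24.2 in TP (ratio 11.98 [10.44-13.81]). The cytokine genes Il1b (1.98 and 12.4 CPM), Il6 (15 and 108 UMIs) and Osm (8 and 109 UMIs) were higher, as were the atypical receptors Ackr2 (ratio 2.72) and Ccrl2 (ratio 3.71) and the leukocyte signalling genes Rac2, Pik3cg and Pik3r5. At control shares Ackr2, Ccrl2, Rac2, Pik3cg, Pik3r5 and Il6 were below 2-fold, with ratios between 1.15 and 1.80. Lower were Dpp4, a protease that trims chemokines, at 130 and 42.5 CPM, the receptor gene Cmklr1 and the receptor kinase gene Grk3, of which only Cmklr1 (ratio 0.408) stayed 2-fold lower at control shares (Dpp4 0.515, Grk3 0.556). Tnf was 6.21 and 6.89 CPM, and the shared signalling genes Gnai2, Gnai3 and Gnb1 had ratios between 0.941 and 1.28.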

How the data were processed

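Dorsal skin of control and TP mice (15 animals pooled per library, 1 library per condition) was profiled by droplet single-cell RNA-seq with 3′ counting. The authors deposited raw UMI counts per gene and barcode from Cell Ranger 8.0.1 on mm10. Whether intronic reads were counted is not given in the sources used here. Because 3′ counts do not scale with transcript length and capture differs between genes, levels were compared between samples and classes and not between genes.

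Following the study's filters, cells had to have 200 to 8000 genes and no more than 10% mitochondrial UMIs, and 7.5% per library was removed as doublets with a rewritten DoubletFinder procedure (3168 control and 1503 TP barcodes). Cells were integrated and clustered in Seurat 5.3.0 (R 4.3.3) with 2000 variable genes, 30 components and resolution 1, and stromal and immune cells were clustered again at resolution 0.6. No member was a clustering feature. Score limits for names were set after the clusters were seen, and a mixed cluster of 39 control and 43 TP cells with a median of 791 UMIs sits in the dendritic-like class.

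UMIs were summed per class and library and divided by the class total (CPM). Log2 ratios used a pseudocount of 1 UMI per library, and a call needed at least 50 UMIs over both libraries and a 2-fold difference. Printed ratios are ratios of CPM without a pseudocount. Intervals are 95% exact Poisson (levels), exact conditional binomial (ratios) and Clopper-Pearson (shares). A count of 0 was bounded at 3 UMIs. Ratios within a class needed 20 cells per library and 10 UMIs. For shares, each cell was thinned to 1000 UMIs, and shallower cells were dropped (5360 in control and 858 in TP). The calling procedure was tested on simulated data. Members and lists were chosen with earlier results of these data known. Members with at least 50 UMIs were named with their levels, and those below with their UMIs. The values of 1 member are not reported here, although the counts over members include it. Positions and promoter sequences are from RefSeq GRCm38.p6, matched by symbol, with 49 members placed and 35 given a promoter window. Alternatives were edgeR 4.0.16 TMM factors, other pseudocounts, filters, thinning, class shares and resolutions.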

Additional observations from a re-analysis of the deposited data

Results flagged for a closer look

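Some members went in opposite directions in different classes, and these differences were not tested. Xcl1 had a ratio of TP over control of 5.023 in lymphocyte-like cells and of 0.1087 in macrophage-like cells, a class in which 1 cluster also carried lymphocyte genes and came mostly from control. Cxcl10 had a ratio of 4.716 in IFE basal-like cells, where 355 UMIs came from a single TP cell, and of 0.1398 in inner root sheath-like cells. Ccl5 had a ratio of 9.221 in lymphocyte-like cells and of 0 in DF-like cells, where the control library had 18 UMIs (11 in 1 cell) and the TP library none. In the lymphocyte-like cluster shared by both libraries the Ccl5 ratio was 4.13 [2.05-9.44], on 9 control and 64 TP UMIs, 35 of the latter in 1 cell.

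A signal also appeared in barcodes that the filters left out, which held 18.5% of control and 19.6% of TP UMIs. Ccl1, a ligand of Ccr8, was 0.55 CPM in the TP barcodes left out (18 of its 31 UMIs in that library, 58.1%), and it was not found in the control barcodes left out.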

How the results depend on the processing

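The number of members at least 2-fold higher in TP was 28 as reported, against 8.07% of all genes. It lay between 22 and 30 with TMM factors, no filter on low counts, a minimum of 200 UMIs, no doublet removal, all barcodes or a 5% mitochondrial limit. Between 7.08% and 11.3% of all genes were higher in those settings. With classes at their share in control 20 members were higher, against 3.81% of all genes. The number was 18 with cells thinned to 1000 UMIs (29 members tested, 9.15% of all genes). It was 18 without the macrophage-, dendritic-, neutrophil- and lymphocyte-like classes (7.01% of all genes). With a pseudocount of 0.1 on counts per 10000, which is large beside the levels of most members, it was 4 (1.7% of all genes). The number lower was 2 as reported (10.9% of all genes), and 3 with no filter on low counts (18.1%) or with all barcodes (11.1%). It was 1 with TMM factors (6.11%), with classes at their share in control (3.47%) and without those immune classes (11.3%). It was 0 with the larger pseudocount (0.853%). The median log2 ratio was 2.43 as reported (-0.244 for all genes), 0.201 with that pseudocount (-0.0572) and 1.23 with no filter (-0.297). It was 1.07 with classes at their share in control (-0.11) and 1.31 without the immune classes (-0.262). The count of members with a leading class was 15, and 24 when the libraries were summed, with no count over all genes beside either.

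Leaving out the 10 cells of each library with the most UMIs of the gene reversed 6 log2 ratios among those past 2-fold with or without these cells: Xcl1 over all cells (-0.157), Cxcl10 in IFE basal-like (-2.24) and DPC-like cells (-1.8), Ccl25 in DF-like cells (0.206), Cxcl9 in inner bulge germinative layer-like cells (-0.842) and Ccr9 in inner root sheath-like cells (-1.13). In each of these 5 class ratios 1 library had between 11 and 17 cells with a UMI, so leaving out 10 took most of its cells. Over all cells Cxcl9 (-0.848) and Cxcl10 (-0.0285), under 2-fold with and without these cells, also changed sign. In the leading macrophage-like cluster the log2 ratio of Ccl21a was -1.32, a sign set by the pseudocount of 1 UMI, since at most 1 control and 3 TP UMIs were there. Without those 10 cells 5 of 40 ratios over all cells and 56 of 130 within classes could not be computed. The settings without immune classes and with the leading cluster alone were chosen after seeing the data. No paired analysis was possible because each condition is 1 library, and for the same reason no replicate could be left out. Depth limits the 10 members below 50 UMIs.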
